A study of Homo sapiens with 54 samples.

Results

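Untreated lymphoblastoid lines were compared with untreated myeloid leukaemia lines across all genes on the array. The arrays were taken by line name and time point (0 h, no agent), and the lines were chosen with earlier results of these data known. The 4 lymphoblastoid lines GM07019, GM07348, GM10854 and GM12878 gave 8 arrays and the 2 leukaemia lines HL60 and K562 gave 4, so 12 of the 54 arrays of the series entered. The series itself followed 9 cell lines for 8 h and 36 h with calcitriol, the hormonal form of vitamin D, on Affymetrix Gene 1.0 ST arrays. None of the 12 arrays came from treated cells. The titles of the arrays of 1 line read GM18054 while their cell line field reads GM10854, and the field was used.

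Lymphoblastoid lines are made by infecting blood B cells with Epstein-Barr virus. Viral proteins in such cells imitate CD40 and B cell receptor signals, hold NF-kB active and drive growth, and the cells resemble activated B cells that have begun to turn towards plasma cells. Each of these lines stems from 1 donor of the HapMap collection. HL60 was established from an acute promyelocytic leukaemia and resembles the stage at which neutrophil precursors make their primary granules. K562 was established from a chronic myeloid leukaemia in blast crisis, and can make embryonic and fetal haemoglobins as early red cells do. In bulk RNA, fewer cells of a type and less RNA per cell cannot be told apart.

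Values are log2 signals, so a difference of 1 is a doubling. A difference is given as the lymphoblastoid mean minus the myeloid mean of line means, with its standard error (SE) after the ± sign. Each line counted once, by the mean of its 2 arrays (n = 4 against n = 2). A gene passed when the limma adjusted p (Benjamini-Hochberg over all 19460 probe sets with 1 gene symbol) was under 0.05. The 12 array medians ran from 5.06 to 5.29. The 2 arrays of a line correlated at 0.978 to 0.988 across probe sets, lowest in K562 and HL60. Line means of the 4 lymphoblastoid lines correlated with each other at 0.977 to 0.991. HL60 and K562 correlated with each other at 0.902, which lies between the values of lymphoblastoid lines with HL60 (0.909 to 0.911) and with K562 (0.883 to 0.893). In counts, 6 to 23 probe sets lay 2 or more apart between any pair of lymphoblastoid lines, against 552 between HL60 and K562, 422 to 518 between a lymphoblastoid line and HL60, and 602 to 673 between one and K562. So by correlation and by large differences the myeloid side was a pair of unlike lines, while the lymphoblastoid side was a close group. For the typical probe set the 2 sides varied alike, with a median SD of 0.16 over HL60 and K562 and 0.18 over the lymphoblastoid lines. Probe sets are not independent, and these correlations have no test. Olfactory receptor genes, which blood cells do not use, had line means with a median of 3.502 and a 95th percentile of 4.967 (360 probe sets). Levels in that range are read as low here, and no detection call was made.

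Of the 19460 probe sets 1356 passed (6.97%), 738 higher (3.79%) and 618 lower (3.18%) in the lymphoblastoid lines. They stood for 705 and 591 genes. All 1356 had line means of the 2 classes that did not overlap. Without a test, all 4 lymphoblastoid means lay above both myeloid means in 2950 probe sets (15.2%) and below both in 2788 (14.3%). Among passing probe sets large differences leaned one way: 199 were higher by 2 or more and 70 were lower by 2 or more. Large differences could fail to pass where HL60 and K562 were unlike, in both directions (MPO -3.70, HBE1 -3.59, MEF2C 3.18). Such probe sets are not in these 2 counts, so the lean holds for passing probe sets only. The median difference over all probe sets was 0.02. These counts depended on which lines entered. They fell to 641 without GM07019, 679 without GM10854, 693 without GM07348 and 922 without GM12878, the only one of the 6 lines whose titles follow another style. With 1 leukaemia line left they rose to 3750 (without HL60) and 2450 (without K562). In those fits the lone line is assumed to vary as the lymphoblastoid lines do. The probe sets lower in lymphoblastoid lines moved most, between 204 (without GM07019) and 2254 (without HL60).

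**Figure D1:**
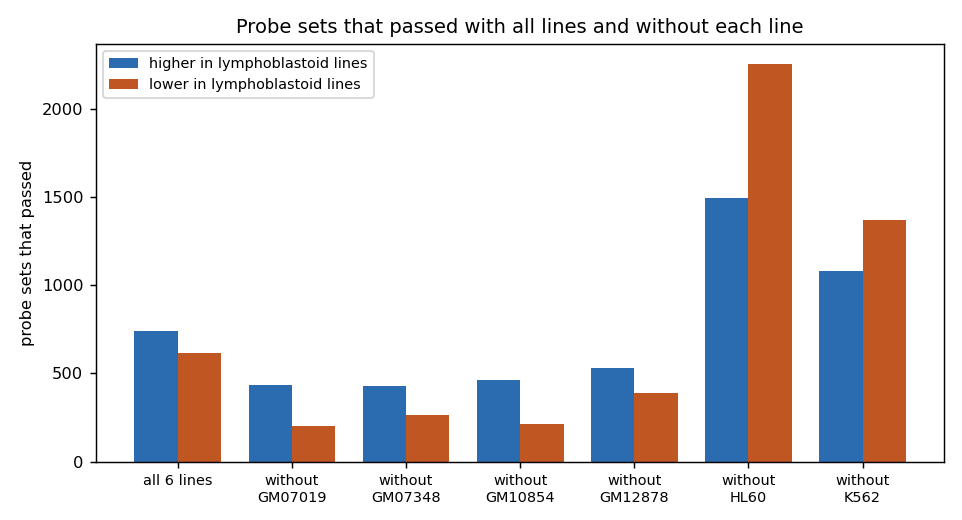
Number of probe sets that passed (vertical axis, limma adjusted p under 0.05) in each direction, with all 6 lines and with each line left out. Leaving out a lymphoblastoid line lowered both counts, to 204 for lower probe sets without GM07019, and leaving out a leukaemia line raised both, to 2254 for lower probe sets without HL60.

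The labels were first set against lineage markers. MS4A1, the B cell surface protein CD20, read 9.47 to 10.02 in the lymphoblastoid lines, 3.30 in HL60 and 3.45 in K562. Its difference of 6.34 ± 0.18 passed (adjusted p = 1.63e-05), and the lowest lymphoblastoid array (9.20) lay far above the highest leukaemia array (3.65). CD79A, a signalling chain of the B cell receptor, read 8.00 in GM07019, 7.54 in GM07348, 8.16 in GM10854, 7.4 in GM12878, 5.2 in HL60 and 4.83 in K562 (2.76 ± 0.25, adjusted p = 0.00109). MPO, the granule peroxidase that marks promyelocytes, read 11.70 on both HL60 arrays, but 4.92 and 5.14 on those of K562. The lymphoblastoid means of MPO were 4.54 to 4.85, so the class difference of -3.70 ± 1.51 did not pass (adjusted p = 0.216). Other promyelocyte markers split the same way: ELANE read 8.89 in HL60, 6.25 in K562 and 6.31 to 6.58 in lymphoblastoid lines, and CTSG read 8.43, 4.55 and 4.42 to 4.79. K562 carried embryonic globins instead. HBE1 read 11.58 in K562 and 4.54 in HL60, and HBZ 11.41 and 5.94. MPO, ELANE and CTSG in K562 were thus at lymphoblastoid levels, while the label myeloid leukaemia covers both lines.

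**Figure D2:**
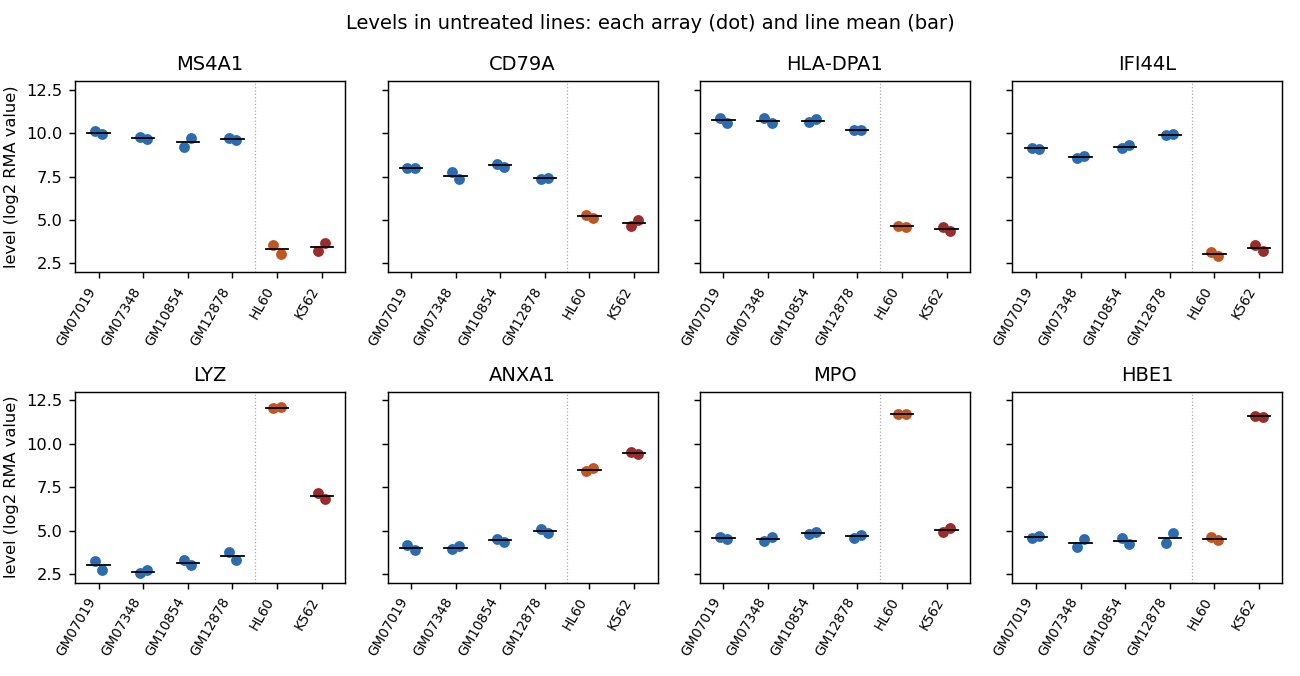
Levels (log2 RMA value) of 8 genes on each of the 12 untreated arrays (dots) with line means (bars), lymphoblastoid lines in blue, HL60 in orange and K562 in red. MS4A1, CD79A, HLA-DPA1 and IFI44L lie higher in the 4 lymphoblastoid lines, LYZ and ANXA1 lie higher in both leukaemia lines, MPO is high only in HL60 (11.70) and HBE1 only in K562 (11.58).

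Markers of other cell types did not separate the classes as lists. Of 20 T and NK cell genes 2 were higher, the kinase LCK (1.39 ± 0.16, adjusted p = 0.00296) and the transcription factor GATA3 (1.19 ± 0.25, adjusted p = 0.0326, not passing without GM07019, GM07348 or GM12878, at up to 0.101). The CD3 chains CD3D, CD3E and CD3G read 3.47 to 4.76 in every line. CD4, which myeloid cells also carry, read 8.86 in HL60 and 4.61 to 4.94 elsewhere. Of 17 monocyte and macrophage genes CD68, a lysosomal protein, was lower (-1.57 ± 0.18, adjusted p = 0.00342). CD14, the monocyte endotoxin co-receptor, read 5.98 in HL60, 5.04 in K562 and 5.18 to 5.58 in lymphoblastoid lines. Of 15 fibroblast genes only the actin gene ACTA2 passed (1.51 ± 0.15, adjusted p = 0.00143), and of 14 hepatocyte genes 0. Albumin (ALB) read 2.83 to 2.99 in all 6 lines. The list medians were 0.12, -0.02, 0.03 and 0.08, against 0.02 over all probe sets. Of all probe sets 3.79% were higher and 3.18% lower.

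The 15 largest differences in favour of the lymphoblastoid lines held B cell, antigen presentation and interferon genes. JCHAIN, which links immunoglobulin M and A into multimers, led with 9.51 in GM12878, 10.59 in GM07348, 10.76 in GM07019 and 11.05 in GM10854, against 2.55 in HL60 and 3.15 in K562 (7.62 ± 0.41, adjusted p = 0.000132). MS4A1 followed at 6.34, and then GPR15, a homing receptor of lymphocytes, at 6.28 ± 0.36. SLAMF7, a surface receptor of plasma cells and NK cells, differed by 5.48 ± 0.22 and reached 9.93 in GM07348. CYTIP, a regulator of integrin adhesion, differed by 5.02 ± 0.37, SCIMP, an adaptor of antigen-presenting cells, by 4.56 ± 0.17, and TRIM22, an interferon-induced antiviral factor, by 4.38 ± 0.43. Adjusted p values for GPR15, SLAMF7, CYTIP, SCIMP and TRIM22 ran from 3.05e-05 to 0.00151. Each of these 5 had low levels in both leukaemia lines, at most 4.94 (TRIM22 in HL60). The widest gaps between the lowest lymphoblastoid and the highest myeloid line mean belonged to JCHAIN (6.35), MS4A1 (6.02), the histone gene H2BC14 (5.65), HLA-DPA1 (5.55) and GPR15 (5.44).

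**Figure D3:**
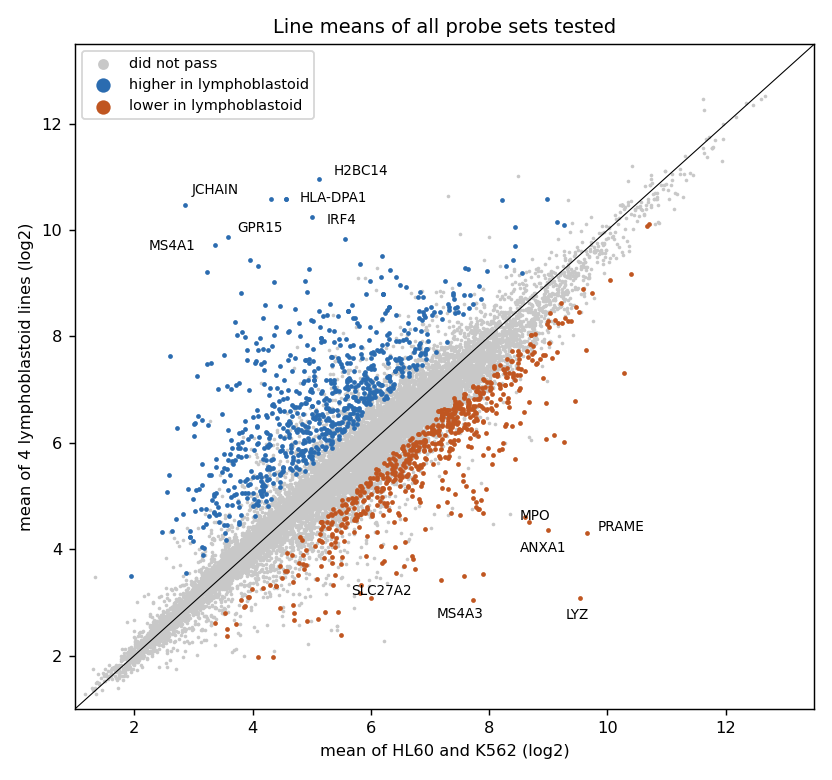
Mean of the 4 lymphoblastoid lines (vertical) against the mean of HL60 and K562 (horizontal), in log2 units, for all 19460 probe sets, with those that passed in blue (738, higher) and orange (618, lower). JCHAIN and MS4A1 lie farthest above the diagonal and LYZ farthest below it, while MPO, high in HL60 alone, did not pass.

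B cell receptor genes were higher as a group. Of 17 measured members 10 were higher and 0 lower, with a list median of 1.85, where 3.79% of all probe sets were higher. CD79B, the partner chain of CD79A, differed by 1.29 ± 0.17. The inhibitory co-receptor CD22 read 7.49 to 8.19 in lymphoblastoid lines, 4.33 in HL60 and 4.32 in K562 (3.49 ± 0.21), and the adaptor BLNK 8.01 to 8.47, 4.34 and 4.0 (4.18 ± 0.19). FCRLA, an Fc receptor-like protein inside B cells, differed by 4.68 ± 0.17, BLK, a B cell kinase of the SRC family, by 2.32 ± 0.27, and the inhibitory Fc receptor FCGR2B by 2.40 ± 0.23. The adjusted p of these 6 genes was 0.00576 or lower. CR2, the complement receptor that Epstein-Barr virus uses to enter B cells, was higher by 2.0 ± 0.32 (adjusted p = 0.0124, 0.0619 without GM07348). LYN, another SRC family kinase, was higher by 1.23 ± 0.24 (adjusted p = 0.0261, but 0.0664 to 0.088 with any 1 lymphoblastoid line left out). In this list 7 members did not pass. Among them PLCG2 read 10.54 to 10.68 in lymphoblastoid lines and 10.84 in both leukaemia lines, and SYK 7.61 to 7.75 against 8.62 and 6.79. CD72 was in the low range, at 4.77 to 4.94 against 4.63 and 4.55. BTK read 7.35 to 8.11 against 7.38 in HL60 and 7.63 in K562.

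Among surface and lineage genes 11 of 19 were higher, 1 was lower and 7 did not pass (list median 1.77). Of all probe sets 3.79% were higher and 3.18% lower. FCER2, the low-affinity IgE receptor CD23 and a classical surface marker of these lines, read 8.92 to 9.54 against 5.32 in HL60 and 4.60 in K562 (4.31 ± 0.25, adjusted p = 0.000176). TNFRSF17, the plasma cell receptor BCMA, differed by 4.25 ± 0.17, CD27, a marker of memory B cells, by 3.14 ± 0.30, and the costimulatory receptor CD40 by 2.31 ± 0.22. CD37 and CD52, widely carried by lymphocytes, differed by 2.22 ± 0.24 and 2.19 ± 0.30. The adjusted p of these 5 genes was 0.0068 or lower. CD24, an adhesion glycoprotein of immature B cells and of myeloid precursors, went the other way, with 2.62 to 3.24 in lymphoblastoid lines, 6.16 in HL60 and 4.72 in K562 (-2.62 ± 0.38, adjusted p = 0.00828, 0.0505 without GM07348). Members such as BANK1, FCRL3 and CXCR5 read below 5 in all 6 lines. CD38 read 5.33 and 5.54 in GM07348 and GM07019, 6.63 and 6.69 in GM10854 and GM12878, and 4.59 and 3.96 in HL60 and K562 (adjusted p = 0.056).

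Among B cell transcription factors 9 of 18 were higher and 0 lower (list median 1.07), where 3.79% of all probe sets were higher. The count was 6 without GM07019, GM07348 or GM10854. IRF4, which acts in activated B cells and plasma cells, read 10.09, 10.57 and 10.36 in GM07019, GM07348 and GM10854 and 9.74 and 10.26 on the 2 arrays of GM12878, against 5.10 in HL60 and 4.90 in K562 (5.25 ± 0.19, adjusted p = 3.05e-05). The lymphoid factor IKZF3 differed by 4.15 ± 0.17 and PRDM1, the plasma cell repressor, by 3.20 ± 0.14. PAX5, which holds B cell identity, was also higher (7.96 to 8.34 against 5.40 and 5.36, 2.73 ± 0.15), so PAX5, IRF4 and PRDM1 were higher in the same lines. The other 9 members did not pass. Among them XBP1 read 8.79 to 9.52 in lymphoblastoid lines against 8.97 in HL60 and 7.77 in K562 (adjusted p = 0.244). POU2AF1, the coactivator of octamer-binding factors in B cells, differed by 1.57 ± 0.18 (adjusted p = 0.00344). POU2F2, such a factor, differed by 0.86 ± 0.17 (adjusted p = 0.0272, 0.078 to 0.0833 without GM07019, GM07348 or GM10854). MEF2C and IRF8 lay above both leukaemia lines in every lymphoblastoid line without passing. MEF2C read 9.21 to 9.36 against 4.32 in HL60 and 7.88 in K562 (adjusted p = 0.0636), and IRF8 8.56 to 9.54 against 7.5 and 4.67 (adjusted p = 0.0588). BCL6, the germinal centre repressor, read 3.56 to 3.65 in the lymphoblastoid lines, in the low range.

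The octamer that POU2F2 and its relatives bind was looked for in promoters (RefSeq, GRCh38.p14, the 250 bases before each start, ATGCAAAT on either strand). It was found in 1.57% of 14239 promoters of genes tested, in 13 of 573 of the higher genes (2.27%) and in 5 of 465 of the lower genes (1.08%). H2BC14, which read 10.80 to 11.08 in lymphoblastoid lines and 5.15 and 5.10 in HL60 and K562 (5.84 ± 0.14, adjusted p = 1.15e-05), holds 1 match that begins 48 bases before its start. Its stretch (chr6:27814949-27815006, plus strand) is shown because this gene had the smallest adjusted p of those named, with the match, here on the opposite strand, in capitals:
H2BC14: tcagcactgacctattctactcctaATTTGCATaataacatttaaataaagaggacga
The element is not particular to this gene: 13 of 16 H2B promoters hold it, and 5 of those 16 H2B genes were higher. It also lies in 10 of 13 H2A promoters, while 1 of 14 H2A genes was higher (median difference -0.21). Histone genes have near-identical copies, so which copy a probe set reports is uncertain.

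Genes of antigen presentation were higher for MHC class II chains and for the peptide supply of MHC class I. For MHC class II, which shows peptides to CD4 T cells, 8 of 14 measured genes were higher and 0 lower (list median 1.28, 5 higher without GM07019). Of all probe sets 3.79% were higher. HLA-DPA1 read 10.75, 10.71 and 10.72 in GM07019, GM07348 and GM10854 and 10.19 in GM12878, against 4.63 in HL60 and 4.49 in K562 (6.03 ± 0.19, adjusted p = 1.78e-05). Its partner chain HLA-DPB1 differed by 3.93 ± 0.28, and the peptide-loading chains HLA-DMA and HLA-DMB by 2.81 ± 0.23 and 2.72 ± 0.21. HLA-DOB, the B cell modulator of loading, differed by 1.5 ± 0.16. All 4 passed with an adjusted p of 0.00206 or lower. The master regulator CIITA differed less, by 0.68 ± 0.15 (adjusted p = 0.0355), and did not pass without GM07019, GM10854, GM12878 or K562 (0.0661 to 0.115). Its DNA-bound partner RFX5 differed by 0.97 ± 0.19 (adjusted p = 0.0258, 0.0647 to 0.0797 with any 1 lymphoblastoid line left out), while RFXANK read 6.99 to 7.22 against 7.33 and 7.44. HLA-DQA1 split the lymphoblastoid lines, at 9.14 in GM07348 and 8.95 in GM12878 but 6.94 in GM07019 and 6.16 in GM10854, against 4.73 and 4.77 (adjusted p = 0.0769).

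For MHC class I and its peptide supply 8 of 14 were higher and 0 lower (list median 1.30), where 3.79% of all probe sets were higher. The immunoproteasome subunit PSMB9 read 8.24 to 8.87 against 6.36 in HL60 and 4.89 in K562 (2.86 ± 0.38, adjusted p = 0.00611). The peptide transporter chains TAP1 and TAP2 differed by 2.59 ± 0.30 and 0.96 ± 0.14, the loading factor TAPBP by 1.12 ± 0.17, the proteasome activator PSME2 by 1.66 ± 0.16 and the trimming peptidase ERAP1 by 1.75 ± 0.20 (adjusted p 0.00131 to 0.0103). K562 was the lower of the leukaemia lines for several members. B2M, the light chain of class I molecules, read 10.52 to 10.64 in lymphoblastoid lines, 10.24 in HL60 and 8.43 in K562 (adjusted p = 0.147), and PSMB8 read 7.19 to 8.07, 6.49 and 4.32 (adjusted p = 0.0662). The class I members that passed all serve the supply, trimming or loading of peptides.

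NF-kB and CD40-type activation genes gave the highest count of any list. Of 27 measured 20 were higher and 0 lower (list median 1.37), where 3.79% of all probe sets were higher. The count was 13 without GM07348. In 26 of the 27 all lymphoblastoid means lay above both leukaemia lines, where 15.2% of all probe sets did. Among the subunits, NFKB2 differed by 1.45 ± 0.18 (adjusted p = 0.00497), NFKB1 by 1.37 ± 0.23 (adjusted p = 0.0143, 0.0623 without GM07348) and RELB by 0.66 ± 0.14 (adjusted p = 0.0381, 0.0907 to 0.112 without GM07019, GM10854 or GM12878). RELA read 7.18 to 7.34 against 7.39 and 7.20. The feedback inhibitors were higher too: NFKBIA read 8.69 to 9.39 against 6.45 and 6.42 (2.68 ± 0.22) and TNFAIP3 7.92 to 8.90 against 6.14 and 5.34 (2.62 ± 0.35). TRAF1, a signal adaptor, differed by 2.26 ± 0.22. The adjusted p of these 3 was 0.00576 or lower.

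Surface proteins and secreted factors of the list covered a wide range of differences. CD86, a costimulatory ligand for T cells, read 6.59, 7.27, 6.73 and 7.47 in GM07019, GM07348, GM10854 and GM12878, against 3.87 in HL60 and 2.97 in K562 (3.59 ± 0.33, adjusted p = 0.00124). CD80, its relative, differed by 2.68 ± 0.43 (adjusted p = 0.0129, 0.0643 without GM07348), with 4.04 in HL60 and 5.72 in K562. The homing receptor CCR7 differed by 3.19 ± 0.26, the chemokine CCL22 by 2.38 ± 0.17, the cytokine LTA by 2.66 ± 0.27 and the cytokine subunit EBI3, found first in cells infected with this virus, by 1.66 ± 0.21 (adjusted p 0.000422 to 0.00526). ICAM1, an adhesion ligand, and CD83, a surface marker of activated antigen-presenting cells, differed by 1.45 and 1.37 (adjusted p = 0.0428 and 0.0168). The adhesion ligand CD58 and the cytokines CCL4, TNF and LTB did not pass, with differences of 1.13, 1.12, 0.96 and 0.32 (adjusted p 0.0516 to 0.29). GM07348 and GM12878 had the higher levels among the lymphoblastoid lines for CD86, CD80, CCR7, LTA and NFKBIA, and GM07019 and GM10854 the lower ones.

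Interferon-stimulated genes were high without added interferon. Of 24 measured 18 were higher and 0 lower (list median 1.96), where 3.79% of all probe sets were higher. The count was 14 to 15 with any 1 lymphoblastoid line left out. In 22 all lymphoblastoid means lay above both leukaemia lines, where 15.2% of all probe sets did. IFI44L read 9.91 in GM12878, 9.23 in GM10854, 9.12 in GM07019 and 8.62 in GM07348, against 3.05 in HL60 and 3.40 in K562 (6.0 ± 0.33). MX1, which blocks the replication of many viruses, read 8.94 to 9.93 against 4.16 and 4.02 (5.24 ± 0.28), and IFI44 7.22 to 8.26 against 2.56 and 2.66 (5.03 ± 0.27). OAS2 and OAS1, sensors of double-stranded RNA, differed by 3.78 ± 0.26 and 2.87 ± 0.23. IFIT1 and IFIT3, which bind foreign RNA, differed by 2.48 ± 0.29 and 2.42 ± 0.22. The adjusted p of these 7 genes ran from 0.000132 to 0.00339. MX2 differed by 2.90 ± 0.43 (adjusted p = 0.0088, 0.0522 without GM07348). IRF9, the DNA-binding part of the factor that answers type I interferon, differed by 1.58 ± 0.15 and IRF2 by 1.68 ± 0.17 (adjusted p = 0.00123 and 0.00174). Both leukaemia lines were low for most members. Some canonical members did not pass. RSAD2 was in the low range in all 6 lines, at 3.43 to 4.14 in lymphoblastoid lines against 3.42 and 3.25 (adjusted p = 0.374), and ISG15 read 5.97 to 6.4 against 5.90 and 5.98 (adjusted p = 0.36). GM12878 had the highest level of the 4 lines for IFI44L, MX1, IFI44, OAS1, OAS2, IFIT1, IFIT3 and MX2.

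Interferon-regulated promoters hold elements built on GAAANNGAA, which was searched after the data were seen, as 1 of 4 added patterns (the other 3 are not reported here). On either strand of the 250 upstream bases it lay in 5.85% of 14239 promoters, in 54 of 573 of the higher genes (9.42%) and in 25 of 465 of the lower ones (5.38%). Of the 16 interferon-stimulated genes with a promoter given, 9 held it (56.2%), and so did 6 of the 13 of MHC class I and peptide loading (46.2%). Of 7 fibroblast genes, a list outside the immune system, 3 held it too (42.9%), and of 11 hepatocyte genes 0. A match is a description of letters and not a shown binding site. The promoter stretches of 4 genes of this list that passed are shown, with the matches in capitals (TTC at a match's left end marks the opposite strand). They lie at chr1:78620259-78620408 (IFI44L), chr1:78649747-78649788 (IFI44), chr10:89392483-89392554 (IFIT1) and chr10:89327817-89327909 (IFIT3), all on the plus strand:
IFI44L: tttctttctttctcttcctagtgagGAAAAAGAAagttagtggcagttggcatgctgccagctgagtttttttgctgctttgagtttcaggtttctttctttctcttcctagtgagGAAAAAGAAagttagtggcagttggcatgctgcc
IFI44: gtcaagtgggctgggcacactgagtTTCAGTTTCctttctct
IFIT1: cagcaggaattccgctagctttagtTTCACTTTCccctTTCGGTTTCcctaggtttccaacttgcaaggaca
IFIT3: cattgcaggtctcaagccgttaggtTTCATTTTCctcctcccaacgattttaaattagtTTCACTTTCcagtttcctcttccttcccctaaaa
IFIT1 and IFIT3 each hold 2 matches on the strand opposite to the gene, and IFI44L holds the same GAAAAAGAA 2 times within a repeated stretch. The single match of IFI44 begins 17 bases before its start.

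Adhesion and homing genes went both ways. Of 23 measured 8 were higher and 2 lower (list median 1.0), where 3.79% of all probe sets were higher and 3.18% lower. The SLAM family receptors, through which lymphocytes touch each other, were higher: SLAMF1 read 7.53 to 7.78 against 3.65 and 3.36 (4.15 ± 0.15), SLAMF6 differed by 3.36 ± 0.17 and their ligand relative CD48 by 4.25 ± 0.60 (adjusted p 3.05e-05 to 0.00747). ITGB7, the gut-homing integrin chain, read 9.24 to 9.46 against 6.21 in HL60 and 5.44 in K562 (3.54 ± 0.22, adjusted p = 0.000202). The fibronectin receptor chains were lower, ITGA5 by -1.90 ± 0.21 (adjusted p = 0.00265) and ITGB1 by -1.03 ± 0.22 (adjusted p = 0.0336, 0.0528 to 0.0989 with any 1 lymphoblastoid line left out). ITGA4, CXCR4 and ITGB2, which guide and anchor leucocytes, parted the leukaemia lines: ITGA4 read 9.17 in HL60 and 3.79 in K562 with 7.70 to 8.91 in the lymphoblastoid lines, CXCR4 8.98 and 4.16 with 4.62 to 5.56, and ITGB2 8.16 and 5.18 with 6.79 to 6.94.

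**Figure D4:**
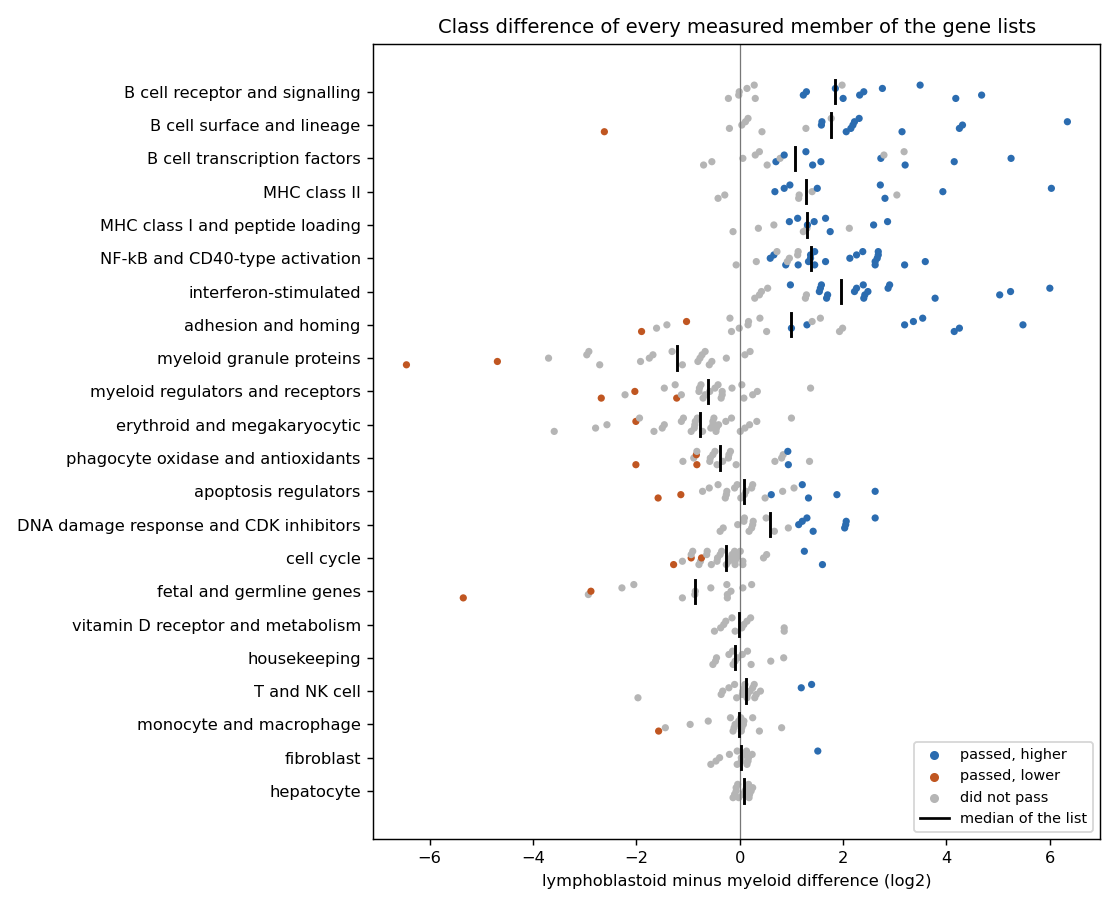
Class difference (log2, horizontal axis) of each measured member of the 22 gene lists, in blue and orange where it passed (higher and lower in lymphoblastoid lines) and grey where it did not, with the list median as a bar. The NF-kB list (20 of 27 higher) and the interferon list (18 of 24 higher) lie to the right, while of the granule list 2 of 20 and of the erythroid list 1 of 30 passed on the left.

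On the other side, the genes lower in the lymphoblastoid lines were those that HL60 and K562 had in common. LYZ, the lysozyme of phagocytes, read 12.09 in HL60, 6.99 in K562 and 2.64 to 3.53 in lymphoblastoid lines (-6.45 ± 1.18, adjusted p = 0.0208). PRAME, an antigen of many leukaemias, read 7.77 in HL60, 11.53 in K562 and 3.92 to 4.55 (-5.35 ± 0.87, adjusted p = 0.0134), and MS4A3, a gene of granulocyte precursors, 9.42, 6.03 and 3.01 to 3.06 (-4.69 ± 0.78, adjusted p = 0.0143). Their differences were large and their errors too, since the leukaemia lines differed from each other. LYZ gave 0.0665 to 0.0872 and MS4A3 0.0507 to 0.0682 without GM07019, GM07348 or GM10854, and PRAME 0.0677 without GM07348. With trend and robust moderation the adjusted p was 0.0712, 0.0523 and 0.0543 for LYZ, PRAME and MS4A3. ANXA1, a calcium-dependent membrane protein that damps inflammation, read 8.52 in HL60, 9.48 in K562 and 4.02 to 4.97 (-4.64 ± 0.35, adjusted p = 0.000568), with the widest gap of this direction (3.55).

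GNAQ, a G protein subunit, differed by -4.17 ± 0.34, and NCR3LG1, the ligand of the NK cell receptor NKp30, read 8.98 in HL60 and 8.22 in K562 against 4.18 to 5.25 (-4.0 ± 0.33). SLC27A2, a fatty acid transporter and acyl-CoA synthetase, was nearly equal in both leukaemia lines, at 7.24 and 7.14, against 3.12 to 3.74 (-3.77 ± 0.20). TGIF1, a transcriptional repressor in TGF-beta signalling, differed by -2.95 ± 0.16, APLP2, of the amyloid precursor family, by -2.96 ± 0.24, and PDE3B, which degrades cyclic AMP, by -3.12 ± 0.29. The adjusted p of these 6 genes ran from 0.000132 to 0.00132. BZW2 and CA8, a relative of the carbonic anhydrases, differed by -3.06 ± 0.17 and -3.11 ± 0.28 (adjusted p = 0.000135 and 0.00111). GLUL, the glutamine synthetase, read 10.01 in HL60, 10.55 in K562, 7.87 and 7.94 in GM07019 and GM07348 and 6.64 and 6.79 in GM10854 and GM12878 (-2.97 ± 0.42, adjusted p = 0.00747). LPCAT2, a phospholipid enzyme of inflammatory cells, read 9.31 in HL60, 5.85 in K562 and 3.05 to 3.72 (-4.08 ± 0.81, adjusted p = 0.0275, 0.0627 to 0.103 with any 1 lymphoblastoid line left out). GTSF1, a partner of the piRNA pathway, read 8.49 and 10.02 against 7.32 in GM07348 and 5.31 to 5.77 in the other lymphoblastoid lines (-3.25 ± 0.62, adjusted p = 0.0239, 0.062 to 0.0778 without GM07019, GM10854 or GM12878).

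Granule proteins showed how the pair of leukaemia lines shaped the test. Of 20 measured 2 were lower, LYZ and MS4A3, and 0 higher (list median -1.21), where 3.18% of all probe sets were lower and the median over all was 0.02. With HL60 alone against the lymphoblastoid lines 18 of 20 were lower, where 7.03% of all probe sets were. PRG2, a granule protein also found in eosinophils, read 10.36 in HL60, 5.06 in K562 and 4.62 to 4.89 in lymphoblastoid lines. BPI, which kills gram-negative bacteria, read 9.21, 3.35 and 3.11 to 3.57, and RNASE2 8.92, 3.41 and 3.27 to 3.76. In the set of all 6 lines their adjusted p was 0.214 to 0.278. Genes of later granules were mixed. LTF, lactoferrin, read 5.82 and 6.28 on the HL60 arrays and had line means of 4.76 to 4.98 in the other 5 lines (adjusted p = 0.33), while CAMP and LCN2 read 5.31 to 5.92 and 5.25 to 5.68 in all 6 lines, HL60 included. The pattern TTGCNNAA, the core that C/EBP factors bind, lay in 7.20% of 14239 promoters, in 5 of the 10 granule genes with a promoter in the table, and in 5 of 11 hepatocyte genes, while the share was 49 of 573 among higher and 24 of 465 among lower genes. MS4A3 holds 2 matches (in capitals, chr11:60056415-60056629, plus strand), shown because it is the granule-list gene that passed and holds the pattern:
MS4A3: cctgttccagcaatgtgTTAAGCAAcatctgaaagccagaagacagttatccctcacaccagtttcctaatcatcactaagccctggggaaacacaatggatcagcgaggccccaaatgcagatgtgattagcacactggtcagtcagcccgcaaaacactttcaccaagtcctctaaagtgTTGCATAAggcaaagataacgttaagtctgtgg

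Myeloid regulators were less uniform. Of 24 measured 3 were lower and 0 higher (list median -0.62), where 3.18% of all probe sets were lower. With HL60 alone 14 were lower (7.03% of all probe sets) and with K562 alone 6 (11.6%). MYB, which keeps progenitors growing, read 9.94 in HL60, 8.98 in K562 and 6.48 to 7.19 in lymphoblastoid lines (-2.68 ± 0.30, adjusted p = 0.00285). KIT, the stem cell factor receptor, read 6.30, 4.42 and 3.28 to 3.40 (-2.03 ± 0.44, adjusted p = 0.0381) and RUNX1 7.95, 7.04 and 5.94 to 6.45 (-1.22 ± 0.27, adjusted p = 0.0405). KIT and RUNX1 did not pass with any 1 lymphoblastoid line left out (0.0851 to 0.119). CLEC12A, a lectin receptor of myeloid cells, read 7.07 in HL60 and 2.44 to 2.72 in the other 5 lines. SPI1, the factor PU.1 that B cells share with myeloid cells, read 7.84 in HL60, 6.30 in K562 and 6.35 to 6.61.

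Many erythroid genes were high in K562 alone, while megakaryocytic genes were mixed. Of 30 measured 1 was lower in the class comparison and 0 higher (list median -0.77), where 3.18% of all probe sets were lower. With K562 alone against the lymphoblastoid lines 21 of 30 were lower, where 11.6% of all probe sets were. NFE2, a globin gene factor that HL60 has too, read 5.72 in HL60, 7.41 in K562 and 4.22 to 4.78 (-2.01 ± 0.42, adjusted p = 0.0335, 0.0768 to 0.111 with any 1 lymphoblastoid line left out). RHAG, a red cell membrane channel, read 9.43 in K562, 3.80 in HL60 and 3.45 to 4.13 in lymphoblastoid lines, and ALAS2, the red cell enzyme that starts haem synthesis, 8.14, 5.31 and 4.94 to 5.50. GATA1 read 7.55, 5.63 and 5.44 to 5.92. HBB, the adult globin, read 5.73 in K562 and 4.20 to 4.79 elsewhere. The platelet genes GP1BA, GP9 and PF4 were nearly equal in HL60 and K562, at 4.26 and 4.29, 5.31 and 5.28, and 3.75 and 3.73. LMO2, LYL1 and TFRC, the transferrin receptor, read 6.0, 6.88 and 10.36 in HL60 and 5.68, 6.68 and 10.16 in K562. CPOX, an enzyme of haem synthesis, was highest in the lymphoblastoid lines (7.31 to 8.12 against 6.3 and 7.16, adjusted p = 0.106). The GATA pattern AGATAAG lay in 1.99% of 14239 promoters, in 7 of 573 and 6 of 465 of the higher and lower genes, and in 4 of the 20 erythroid and megakaryocytic genes with a promoter in the table.

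**Figure D5:**
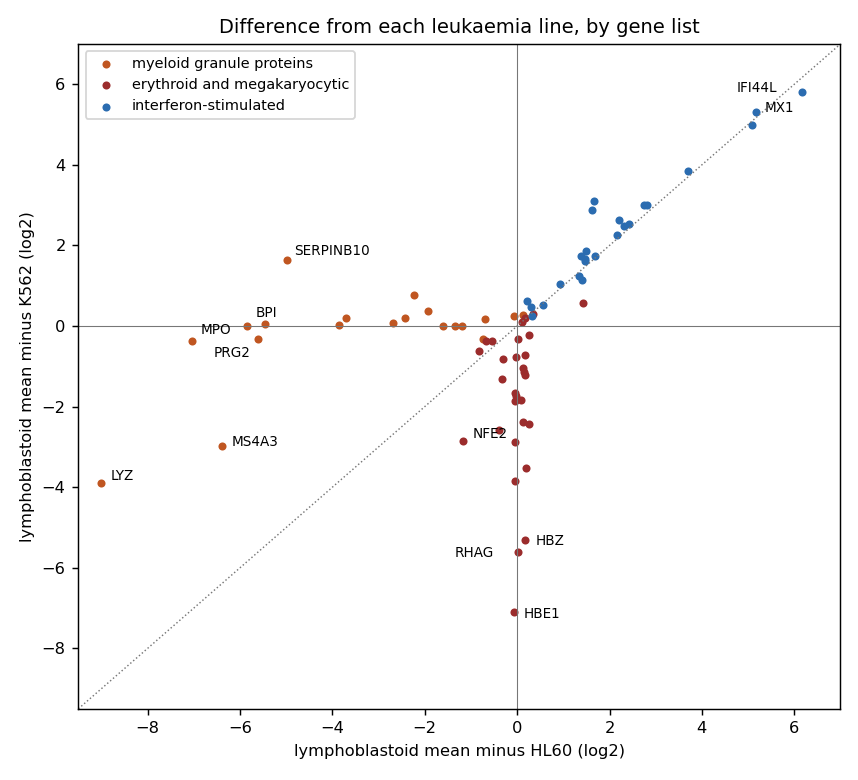
Lymphoblastoid mean minus K562 (vertical, log2) against lymphoblastoid mean minus HL60 (horizontal, log2) for the measured members of 3 gene lists, with equal differences on the dotted line. Interferon-stimulated genes lie along the dotted line, up to IFI44L, granule genes spread to the left (LYZ, MPO) and erythroid genes downwards (HBE1, RHAG), so that LYZ, MS4A3 and NFE2 are the members of those lists that lay below both lines and passed.

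The split between HL60 and K562 reached past these lists. Among the 18384 genes considered for naming, HL60 lay above and K562 below all 4 lymphoblastoid lines in 924, and the reverse held in 826. No margin was required, and these counts were not compared with a random order of lines. The class difference cancels in part only where both leukaemia lines lie well away from the lymphoblastoid lines. PLAC8 read 10.35 in HL60, 3.86 in K562 and 8.62 to 9.27 in lymphoblastoid lines. The serpin SERPINB10, a member of the granule list, read 9.78, 3.16 and 4.12 to 5.26. CHI3L1, a secreted protein of neutrophil precursors and macrophages, read 10.14, 4.45 and 4.48 to 4.74, so K562 was nearly level with the lymphoblastoid lines. The small nucleolar RNAs SNORD116-14 and SNORD116-21 of the imprinted Prader-Willi region read 8.75 and 8.01 in HL60, 2.87 and 2.0 in K562, and 6.54 to 7.91 and 5.23 to 6.44 in lymphoblastoid lines. The SNORD116 copies resemble each other, so single copies are uncertain. In the other direction SSX1, a testis antigen of the fetal and germline list, read 8.50 in K562, 2.35 in HL60 and 2.37 to 2.68. For SSX1, HL60 was nearly level with the lymphoblastoid lines. GALNT5, a mucin-type glycosylation enzyme, read 8.99, 2.87 and 3.58 to 3.88, and CPED1 9.08, 3.09 and 3.30 to 3.73.

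Of 15 fetal and germline genes 2 were lower and 0 higher (list median -0.86), where 3.18% of all probe sets were lower. With K562 alone 10 were lower, where 11.6% of all probe sets were, and with HL60 alone 2, where 7.03% were. Beside PRAME the other lower gene was IGF2BP1, a fetal RNA-binding protein, at 7.07 in HL60, 8.47 in K562 and 4.81 to 4.99 in lymphoblastoid lines (-2.88 ± 0.34, adjusted p = 0.00353). LIN28B, which blocks let-7 microRNAs, read 6.75 in K562 and 1.89 to 2.19 in the other 5 lines. MAGEC2, another testis antigen, read 7.64 and 3.30 to 3.67.

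Genes of the DNA damage response went one way where they passed. Of 20 such genes and CDK inhibitors 8 were higher in the lymphoblastoid lines and 0 lower (list median 0.59). Only 5 were higher without GM07019, GM07348 or GM12878. Of all probe sets 3.79% were higher. CDKN1A, the cell cycle inhibitor p21, read 7.34, 8.03, 7.25 and 7.96 in GM07019, GM07348, GM10854 and GM12878, against 5.49 in HL60 and 5.70 in K562 (2.05 ± 0.26). The death receptors FAS and TNFRSF10B differed by 2.62 ± 0.25 and 1.21 ± 0.17, and ZMAT3, an RNA-binding zinc finger protein, by 2.06 ± 0.24 (adjusted p of these 4 genes 0.00137 to 0.00673). TP53INP1 differed by 2.03 ± 0.30 (adjusted p = 0.00922, 0.0512 without GM07348). MDM2, a ubiquitin ligase, read 8.29 to 9.0 against 7.13 and 7.70 (1.30 ± 0.24, adjusted p = 0.0234), and the DNA repair gene DDB2 7.18 to 7.65 against 6.44 and 5.58 (1.42 ± 0.26, adjusted p = 0.0209). Both did not pass without GM07019, GM07348 or GM12878, at up to 0.0772. FAS also belongs to the NF-kB list. Other CDK inhibitors, such as CDKN1B (6.31 to 6.59 against 6.36 and 6.10) and CDKN2D (5.53 to 6.21 against 6.15 and 5.93), overlapped between the classes.

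Regulators of apoptosis went both ways, 5 of 23 higher and 2 lower (list median 0.09), or 3 and 1 without any 1 lymphoblastoid line. Of all probe sets 3.79% were higher and 3.18% lower. PMAIP1, the BH3-only protein NOXA, differed by 1.88 ± 0.24 (adjusted p = 0.00542), and TNFRSF10A, a TRAIL receptor, by -1.58 ± 0.20 (adjusted p = 0.0045). FAS and TNFRSF10B, given above, were higher. BCL2A1, an inhibitor of apoptosis that NF-kB induces, differed by 1.33 ± 0.29 (adjusted p = 0.0354), the effector BAX by 0.61 ± 0.14 (adjusted p = 0.0473) and the BH3-only protein BCL2L11 by -1.14 ± 0.27 (adjusted p = 0.0496). None of these 3 passed with any 1 lymphoblastoid line left out (up to 0.106, 0.140 and 0.138). BCL2 itself read 7.44 to 7.54 in lymphoblastoid lines, 7.73 in HL60 and 5.16 in K562, and BCL2L1 7.05 to 7.72, 6.30 and 8.51.

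Of 31 cell cycle genes 2 were higher and 3 lower (list median -0.26), where 3.79% of all probe sets were higher and 3.18% lower. In 13 of the 31 all lymphoblastoid means lay below both leukaemia lines, where 14.3% of all probe sets did. With the 12 arrays and the line as random block 10 were lower, and 9 with the replicate block added, where 7.75% and 7.16% of all probe sets were. CCND2, the D-type cyclin of lymphocytes, read 10.37 to 10.98 against 9.03 in HL60 and 8.92 in K562 (1.6 ± 0.20, adjusted p = 0.00444, but 0.319 when all 9 untreated lines shared 1 fit), and RB1 differed by 1.25 ± 0.15 (adjusted p = 0.00443). The helicase subunits MCM6, MCM7 and MCM4 differed by -1.28 ± 0.23, -0.94 ± 0.22 and -0.74 ± 0.15 (adjusted p = 0.0198, 0.048 and 0.0325). None of the 3 helicase genes passed without GM07019, GM07348 or GM10854 (up to 0.136), and with K562 alone 12 of 31 genes were lower (11.6% of all probe sets). MKI67 read 8.65 to 8.78 in lymphoblastoid lines, 8.61 in HL60 and 7.88 in K562.

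The oxidase and antioxidant genes had 2 of 22 higher and 3 lower (list median -0.38), where 3.79% of all probe sets were higher and 3.18% lower. CAT, the catalase, read 9.42 in HL60, 7.77 in K562 and 6.05 to 6.86 (-2.01 ± 0.44, adjusted p = 0.0382), GSTK1, a mitochondrial glutathione transferase, differed by -0.84 ± 0.18 (adjusted p = 0.034) and TXNRD1, the thioredoxin reductase, by -0.83 ± 0.18 (adjusted p = 0.0404). None of these 3 passed without GM07019, GM07348 or GM10854 (up to 0.114), with arrays centred on their median (0.0518 to 0.0545) or with every probe set of the table tested (0.0506 to 0.0599). With quantile normalization CAT and TXNRD1 did not pass (0.061 and 0.0551). With K562 alone 10 of 22 were lower and 6 higher, where 11.6% and 7.69% of all probe sets were. HMOX1, the haem oxygenase, was higher by 0.93 ± 0.13 (adjusted p = 0.00705, 0.114 in the fit of 9 lines), and GPX7 by 0.94 ± 0.17 (adjusted p = 0.0212, 0.0584 to 0.0713 without GM07019, GM07348 or GM10854). CYBB, the catalytic subunit of the phagocyte oxidase, read 7.85 to 8.71 in lymphoblastoid lines, 9.32 in HL60 and 4.47 in K562.

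None of 12 vitamin D genes and none of 13 housekeeping genes passed (0 and 0), with list medians of -0.02 and -0.09. With 6.97% of all probe sets passing, a count of 0 in lists this short says little about their members. At an unadjusted p under 0.05 the fit over all genes held 4119 probe sets. VDR, the vitamin D receptor, read 5.11 to 5.28 in lymphoblastoid lines, 5.98 in HL60 and 4.66 in K562 (adjusted p = 0.84). CYP24A1, the enzyme that degrades calcitriol, read 2.92 to 3.65 in all 6 lines before treatment, in the low range. GAPDH read 12.26 to 12.64 against 12.33 and 12.35, and ACTB 12.30 to 12.72 against 11.90 and 11.33 (0.85 ± 0.20, adjusted p = 0.0516).

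The 4 lymphoblastoid lines differed from each other in single genes. Their SD over lines had a median of 0.18 over all probe sets. The widest range belonged to DSC3, a desmosomal cadherin, at 7.26 in GM07348 and 2.66 to 3.49 in the other lines. CYP1B1, a steroid and xenobiotic oxidase, read 9.58 in GM12878, 7.82 in GM07348, 6.65 in GM07019 and 6.14 in GM10854. DPP4, the peptidase CD26, read 6.59 in GM12878, 4.43 in GM07019 and GM10854 and 3.19 in GM07348. The cell adhesion gene NRCAM and the collagen hydroxylase P3H2 were highest in GM07348, at 6.87 and 8.36, and read 3.55 to 4.94 and 5.06 to 5.74 in the others. None of these 5 passed between the classes.

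The same lines were also measured 8 h and 36 h after calcitriol, on other arrays of treated cells. MS4A1 read 9.52 to 10.17 at 8 h and 9.54 to 10.21 at 36 h in lymphoblastoid lines, and 3.27 to 3.88 in HL60 and K562. CD79A read 7.46 to 8.63 at 8 h and 8.69 to 9.46 at 36 h, against at most 5.19. MPO stayed at 11.69 and 11.46 in HL60 and read at most 5.0 in K562 and the lymphoblastoid lines. Of the 738 probe sets higher at 0 h, 728 at 8 h and 725 at 36 h again had all lymphoblastoid means above both leukaemia lines, and of the 618 lower ones 588 and 592 again lay below. The members of these sets were chosen for their values at 0 h, and these counts have no test.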

How the data were processed

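Per the labels' protocols, 100 ng of total RNA was labelled for each Affymetrix Gene 1.0 ST array. The deposited values are log2 signals that the authors made with Expression Console 1.0 and RMA, per the submitters' processing notes. The sources used here do not give whether RMA was run on all arrays at once. Arrays have no sequencing depth, so precision is limited by how many lines there are. The array titles mark the 2 arrays of a line BR1 and BR2, without saying whether these came from separate cultures. The p-values measure the spread between these lines.

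The table holds 33297 probe sets. The probe table listed 21214, of which 19460 had 1 gene symbol, 1754 had several and were not named, and 19429 matched a gene ID. Arrays of a line were averaged, and 4 against 2 line means were fitted with limma 3.58.1 (lmFit and eBayes, two-sided, 4 residual and 3.34 prior degrees of freedom, R 4.3.3), with Benjamini-Hochberg adjustment and a threshold of 0.05. On simulated data with this design the script was tested first. All simulated lines varied as the lymphoblastoid lines do, so the spread between HL60 and K562 was not part of that check. Genes with several probe sets are given by the one with the highest mean. Promoters came from RefSeq (GRCh38.p14), matched by symbol. The array annotation's build is not used here, and no gene positions are given beyond those of promoters. Tables and plots used Python 3.11.15, numpy 2.4.6, pandas 2.3.3 and matplotlib 3.10.9.

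Lines, gene lists and markers were chosen with earlier results of these data known. Lists are described by counts and medians without a set test. Genes were named by rule: MS4A1, CD79A and MPO, the 15 largest differences and 5 widest gaps in each direction among genes that passed, the 4 members of each of the 22 lists with the largest difference and members the list turns on, 5 genes in each direction with HL60 and K562 on opposite sides, and the 5 widest ranges over lymphoblastoid lines. XIST, Y-linked genes, variable segments and genes with common deletions were left out of naming. Other list members named were chosen after their values were seen. Alternatives were arrays in place of line means with the line as random block, with and without the replicate number, all 9 untreated lines in 1 fit, quantile normalization, centring on the median, a filter on low values, 1 probe set per gene, every probe set, moderation with trend and robust estimation, leaving out each line, and 1 array per line.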

Additional observations from a re-analysis of the deposited data

Results flagged for a closer look

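Among 171 named genes, 12 (7.02%) had 1 of the 4 lymphoblastoid lines far from the other 3, by the gap to the nearest line over the whole range (above Dixon's 95% critical value). Chance alone gives about 1 in 20. In 8 of the 12 the line was GM12878, whose titles follow another style than those of the other 5 lines, and the part of that in these values was not tested. GM12878 was lowest for HLA-DPA1 (10.19 against 10.71 to 10.75 in the other lines), CYTIP (8.6 against 8.88 to 8.91), BLNK (8.01 against 8.45 to 8.47), CD27 (7.67 against 8.6 to 8.68) and TP53INP1 (6.08 against 6.88 to 6.98). It was highest for TAP1 (9.11 against 8.67 to 8.70), IFIT3 (6.91 against 6.34 to 6.4) and CD24 (3.24 against 2.62 to 2.72). GM07348 was highest for SLAMF7 (9.93 against 9.22 to 9.34), IRF2 (7.92 against 7.60 to 7.62) and VCAN, a matrix proteoglycan (5.86 against 4.25 to 4.47), and lowest for TNFRSF13B, the receptor TACI (8.36 against 8.50 to 8.52). For 11 of the 12, all but VCAN, the class difference passed.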

How the results depend on the processing

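Of 123 named genes that passed, 38 lost the call in at least 1 alternative and 0 changed direction. Counts stayed within 1.5 times under the 9-line fit, both scalings, the filter, 1 probe set per gene, every probe set and the trend setting (1113 to 1577 of 1356). With the 12 arrays and the line as random block 2803 probe sets passed (1295 higher, 1508 lower), and with the replicate block added 2637 (1243 higher, 1394 lower), where CIITA alone of the named genes lost the call. The replicate numbers did not pair the arrays of all lines alike: over 15 pairs of lines the correlation of deviations ran from -0.613 to 0.447, above 0.1 in 6. Those 6 were the pairs among GM07019, GM07348, K562 and GM12878 (0.182 to 0.447). HL60 ran opposite to these lines (-0.613 to -0.228), and GM10854 gave -0.082 to 0.08. The source of this pattern was not tested. With a line left out, or only arrays of 1 number used, the total ran from 641 to 3750, the higher from 430 to 1496 and the lower from 204 to 2254. Fewer lines or arrays entered there, and a lone leukaemia line brings in no spread of its own. Low signals limit differences from levels near those of olfactory receptor genes, which understate the fold.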

Other observations

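Replication-dependent histone genes, looked at after their values were seen, passed in 1 direction only, and most did not pass. Of 57 measured (linker H1 and core H2A, H2B, H3 and H4 genes) 13 were higher and 0 lower, where 3.79% of all probe sets were higher, with a median difference of 0.06 against 0.02 over all probe sets. The median was -0.21 for the 14 H2A genes and 1.19 for the 8 H3 genes. By family these were 2 of 6 H1, 1 of 14 H2A, 5 of 16 H2B, 3 of 8 H3 and 2 of 13 H4 genes. H3C8 read 6.52 to 6.96 in lymphoblastoid lines, 4.13 in HL60 and 4.58 in K562 (2.39 ± 0.19, adjusted p = 0.00067). H2BC12 read 8.81 to 10.02, 5.47 and 10.36, and H3C11 10.61 to 10.70, 10.27 and 4.35, so that each was low in 1 leukaemia line only. Copies are near-identical, and which one a probe set reports is uncertain.

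Some genes outside the lists, also chosen after their values were seen, passed with large differences. The DNA sensors IFI16 and AIM2 were higher by 3.65 ± 0.20 and 3.12 ± 0.24 (limma adjusted p = 0.000132 and 0.000638), and TLR7, an RNA sensor of B cells and dendritic cells, by 3.34 ± 0.33 (adjusted p = 0.00161). CD274, the checkpoint ligand PD-L1, read 6.08, 6.63, 5.57 and 7.16 in GM07019, GM07348, GM10854 and GM12878, 3.04 in HL60 and 2.99 in K562 (3.35 ± 0.40, adjusted p = 0.00372). The iron exporter gene SLC40A1 was lower by -2.46 ± 0.57 (adjusted p = 0.0471), at 5.06 in HL60, 7.39 in K562 and 3.40 to 4.17 in lymphoblastoid lines.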
